A study of Mus musculus with 19 samples.

Results

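The livers compared here came from mice that received a steatohepatitis-inducing diet together with remote limb ischemic conditioning and from mice that had neither. The first group was CDAHFD RIC (n = 4): wild-type mice (WT in the labels) on CDAHFD, a high-fat diet without choline and with defined L-amino acids, with the conditioning procedure. The second was NC sham (n = 5): WT mice on normal chow, with the sham procedure. These 9 samples are part of 19 bulk liver RNA-seq samples, the other groups being CDAHFD sham (n = 5) and NC RIC (n = 5), and all 52110 named genes of the table were members of the comparison. The levels are FPKM, fragment counts divided by gene length in kilobases and by the mapped fragments of the sample. The sources used here state neither strain, sex, age, feeding state, diet duration nor conditioning schedule. They also do not say that replicates were separate animals, so p-values measure only the spread between these samples, which may be technical. Diet and procedure differ together between CDAHFD RIC and NC sham and cannot be told apart within this comparison. The CDAHFD RIC samples were therefore also tested against CDAHFD sham. The NC RIC values are given for key genes.

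A liver deprived of choline cannot make enough phosphatidylcholine to export triglyceride in lipoproteins, so fat is retained. Injury then recruits macrophages and activates stellate cells, which lay down scar matrix. In remote conditioning, the blood flow to a limb is blocked and restored in turns, and organs elsewhere are studied for protection. Hepatocytes, the main cells of the liver, make the blood proteins and carry out glucose, lipid and drug metabolism, which fall as injury proceeds.

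Conditioned livers on the diet remained far from chow livers. Of the 10577 genes tested, those averaging 1 FPKM or more in the whole series, 6032 (57%) were higher in CDAHFD RIC than in NC sham and 853 (8.06%) were lower, at an adjusted p under 0.05 by limma. Differences are given on the log2(FPKM + 1) scale, which understates the change of genes at a low level. A difference of at least 1 on that scale was found upwards in 1345 genes (12.7%) and downwards in 246 (2.33%). The highest and lowest samples of the groups did not overlap for 5193 genes that were higher (49.1%) and 607 that were lower (5.74%). Against CDAHFD sham, 922 genes (8.72%) were higher in CDAHFD RIC and 1964 (18.6%) were lower. For reference, 6762 genes (63.9%) were higher and 1090 (10.3%) lower in CDAHFD sham than in NC sham, a comparison that shares the NC sham samples, and 34 (0.321%) were higher and 91 (0.86%) lower in NC RIC than in NC sham.

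The direction of small differences depends on scaling. The median log2 difference of all genes tested was 0.36 for CDAHFD RIC against NC sham, and 87.6% of the calls were upwards. With the samples scaled by median ratios the median was -0.06, and 2474 genes were higher and 3082 lower (44.5% upwards). Quantile normalization gave a median of -0.05, with 2627 higher and 2877 lower. Scaling to a common sum widened the upward shift instead, to a median of 0.50, with 7254 higher and 608 lower (92.3% upwards). Against CDAHFD sham the median was -0.08, with 31.9% of calls upwards, 58.5% after median-ratio scaling, 55.5% after scaling to a common sum and 50.5% after quantile normalization. Summed FPKM was 481408 to 498259 in NC sham and 418101 to 442525 in CDAHFD RIC. Depth, by an uncertain estimate, was 15.95 to 26.46 M reads over all samples. On the first principal component (75.6% of the variance) NC sham lay between -46.1 and -39.7, CDAHFD RIC between 36.3 and 51.3 and CDAHFD sham between 53.3 and 64.4. The tissue was liver by its markers: albumin (Alb) was at 34829 ± 4842 FPKM (SD, n = 5) in NC sham and 30916 ± 5259 (SD, n = 4) in CDAHFD RIC. Of 13 pancreatic genes, 11 were listed at 0 in every NC sham sample and 4 (Prss1, Ins1, Ins2 and Gcg) in every CDAHFD RIC sample. The other 7 of the 11 (Prss2, Cela3b, Cpa1, Cpb1, Ctrb1, Amy2a5 and Pnlip) were above 0 in CDAHFD RIC sample 4 alone of that group, at 0.0284 to 1.56 FPKM. The summed level of the 13 was 3.36 to 5.35 FPKM in NC sham and 3.4 to 6.93 in CDAHFD RIC, and the part of pancreatic RNA in the results was not tested. The summed level of 12 skeletal muscle genes was at most 0.641 FPKM in NC sham and 2.3 in CDAHFD RIC.

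**Figure D1:**
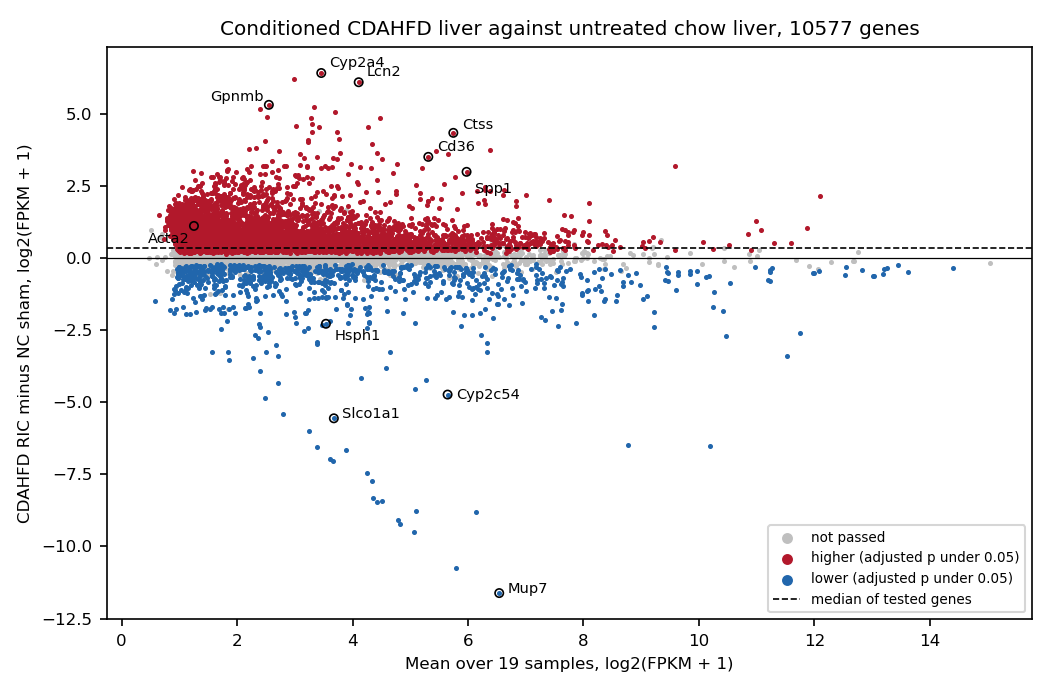
Mean level of each of the 10577 genes tested (x axis, log2(FPKM + 1) over all samples) against the log2 difference CDAHFD RIC minus NC sham (y axis). Points coloured by call are genes at an adjusted p under 0.05; the named genes include Cyp2a4 at the top with a difference of 6.42 and Mup7 at the bottom with -11.62.

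Macrophage genes were among the largest rises over chow. All 19 genes of a list of lipid-associated macrophage genes, which mark the macrophages that gather around fat-laden cells, were higher in CDAHFD RIC than in NC sham, with a median log2 difference of 3.18. The median against CDAHFD sham was -0.27, and 2 of the 19 were lower there. Of all genes tested, 57% were higher than in NC sham and 18.6% lower than in CDAHFD sham. Trem2, a lipid receptor of these cells, was at 4.39, 6.84, 2.85 and 6.86 FPKM in CDAHFD RIC and at most 0.111 in NC sham. Gpnmb, a lysosomal membrane glycoprotein (chr6:49036546-49070929, plus strand), was listed at 0 in 4 NC sham samples and at 0.0089 in the other. It stood at 38.9, 57, 20.8 and 49.4 FPKM in CDAHFD RIC, a log2 difference of 5.32 (SE 0.192, adjusted p = 4.77e-14 by limma). The CDAHFD sham samples ran from 33.7 to 52.3 FPKM, inside the span of the CDAHFD RIC samples, and the difference between these groups was -0.11 (95% interval -0.51 to 0.29). Mmp12, the macrophage elastase, had 46.4, 47.1, 19.4 and 36.3 FPKM in CDAHFD RIC and no more than 0.0489 in NC sham. Sample 3 of CDAHFD RIC was the lowest of its group for each of these 3 genes, yet lay far above every chow sample. Without it, Mmp12 was also higher than in CDAHFD sham (log2 difference 0.54, adjusted p = 0.00398 by limma, against 0.26 and 0.283 with all 4 samples).

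Genes of other myeloid cells followed the same order. Ctss, which encodes the lysosomal protease cathepsin S, was at 12.6 ± 1.01 FPKM (SD, n = 5) in NC sham, 286 ± 93.4 (SD, n = 4) in CDAHFD RIC and 266 ± 32.5 (SD, n = 5) in CDAHFD sham. Lysozyme (Lyz2) stood at 24 ± 4.06 (SD, n = 5) in chow liver and at 389, 450, 190 and 351 FPKM in conditioned liver. The neutrophil and monocyte markers with a tested level numbered 10 of 18. All 10 were higher than in NC sham (median 2.47), beside 57% of all genes. Of these markers, Mpo, which encodes the myeloperoxidase of neutrophil granules, was listed at 0 in both groups. All 7 tested of 14 class II MHC and dendritic cell genes were higher (median 2.78), H2-Ab1 among them with 2.2 ± 0.595 FPKM (SD, n = 5) against 22.8 ± 4.58 (SD, n = 4). A gene with a low level in chow liver could be tested only where the diet groups were high, so the counts of tested members describe those genes and not the whole lists. This limit holds for every list below with members low in chow liver, such as the female-biased, matrix, cell-cycle and cholangiocyte lists. In bulk liver, more cells of a type and more RNA per cell cannot be told apart.

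Markers of resident macrophages were above chow as well, and some were above the diet sham level. Of 13 markers of Kupffer cells, the resident macrophages of the liver, 12 were higher in CDAHFD RIC than in NC sham (median 1.67). Of all genes tested, 57% were higher. The test of the 13 markers against CDAHFD sham found 5 higher and 1 lower, beside 8.72% and 18.6% of all genes. Their median was 0.40, against a median of -0.08 for all genes. The summed level of the 13 markers was 77.2 to 101 FPKM in NC sham, 290 to 437 in CDAHFD sham and 343 to 665 in CDAHFD RIC. Clec4f, a lectin of resident Kupffer cells, was at 33.7, 47.5, 41.6 and 37.5 FPKM in CDAHFD RIC, and all 4 samples were above the 5 of NC sham (16 to 20.6). Its log2 difference from chow was 1.09 (adjusted p = 2.3e-05 by limma). The difference of 0.40 from CDAHFD sham (95% interval 0.03 to 0.76) did not pass after adjustment (adjusted p = 0.0945), though it did after median-ratio scaling (0.51). Lymphocyte markers were at a low level: 16 of 19 T, NK and B cell markers were below the level needed for a test. Of the 3 tested, 2 were higher than in NC sham (median 0.94) and 1 was lower than in CDAHFD sham. The summed level of the 19 was 3.46 to 12.7 FPKM in NC sham and 12.3 to 23.9 in CDAHFD RIC.

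Chemokines and interferon-stimulated genes kept a part of the diet difference that varied from gene to gene. Of 23 tested genes of the cytokine, chemokine and NF-kB list, 22 were higher than in chow liver (median 1.51), against 57% of all genes. Against CDAHFD sham 3 were higher and 7 lower, beside 8.72% and 18.6% of all genes. Ccl2, the main monocyte chemoattractant, was listed at 0 to 0.104 FPKM in NC sham and stood at 8.88, 7.44, 4.73 and 7.6 in CDAHFD RIC and at 9.64 to 13.9 in CDAHFD sham. The diet groups did not overlap, and their log2 difference was -0.69 (adjusted p = 0.00142 by limma), a call lost with a pseudocount of 0.1. Cxcl10, an interferon-induced chemokine for T cells, was at 0.282 ± 0.0625 FPKM (SD, n = 5) in NC sham and at 4.85, 3, 1.5 and 3.09 in CDAHFD RIC. The 5 CDAHFD sham samples lay at 6.77 to 9.82, above all 4 conditioned samples (difference -1.21, adjusted p = 8.12e-05). Interferon-stimulated genes were higher than chow in 20 of 22 tested (median 1.21) and lower than CDAHFD sham in 8 of 22, beside 18.6% of all genes tested. After common-sum or median-ratio scaling 4 of the 22 were lower than CDAHFD sham. Isg15, a ubiquitin-like modifier, was among those that were lower than CDAHFD sham, with 9.36 ± 2.74 FPKM (SD, n = 4) against 17.7 ± 4.68 (SD, n = 5), chow being at 2.55 ± 0.226 (SD, n = 5). Usp18, the protease that removes that modifier, was at 10.3 ± 0.873 (SD, n = 4) and 11.3 ± 1.14 (SD, n = 5), with an interval of the difference from -0.43 to 0.18.

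The acute-phase gene Lcn2, which encodes the iron-sequestering protein lipocalin 2 (chr2:32384633-32388252, minus strand), had the third-largest rise over chow of the genes ranked. The ranking took genes with separated groups and left out symbols of predicted genes and symbols listed more than once. Lcn2 levels were 1.55, 0.781, 1.21, 1.03 and 0.885 FPKM in NC sham and 171, 173, 88.6 and 152 in CDAHFD RIC. The groups did not overlap, the fold of means was 134, and the log2 difference was 6.10 (SE 0.259, adjusted p = 6.62e-13 by limma). Against CDAHFD sham (158 ± 43.6 FPKM, SD, n = 5) the difference was -0.11 (95% interval -0.66 to 0.43). Of 23 tested acute-phase genes, 13 were higher than in chow liver, a share near the 57% of all genes, and 4 were lower (median 0.87); after median-ratio scaling 10 were higher and 8 lower.

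**Figure D2:**
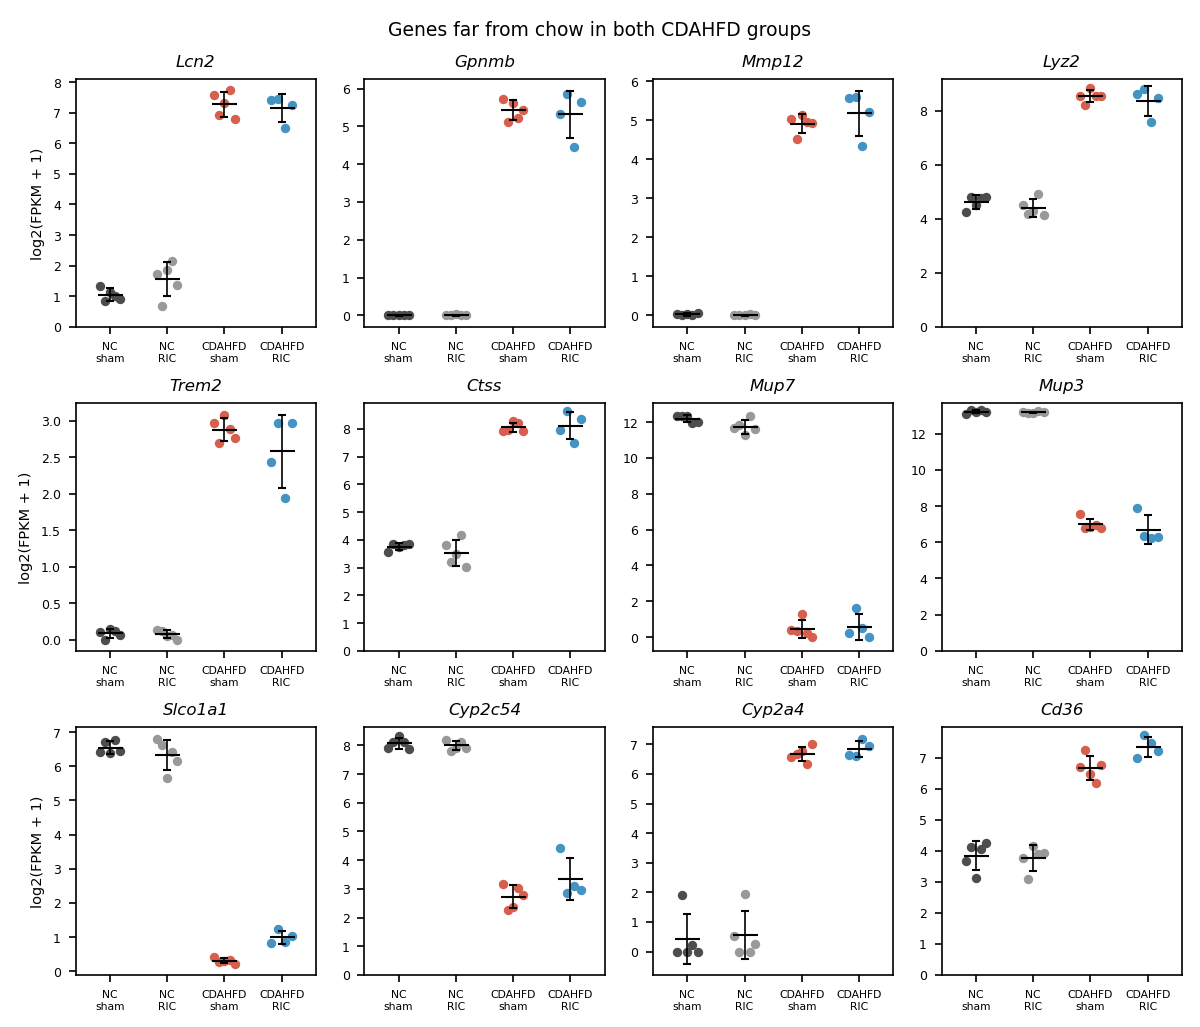
Level, as log2(FPKM + 1), of 12 genes in every sample of the 4 groups (points), with the group mean (bar) and SD (whiskers); each panel has its own y axis. Lcn2, Gpnmb, Mmp12, Lyz2, Trem2, Ctss, Cyp2a4 and Cd36 are high and Mup7, Mup3, Slco1a1 and Cyp2c54 low in both diet groups.

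The deepest falls from chow were in genes that growth hormone pulses keep high in male liver. All 20 genes of a male-biased list were lower in CDAHFD RIC than in NC sham, with a median log2 difference of -4.95, and 1 of the 20 was higher and none lower than in CDAHFD sham. Of all genes tested, 8.06% were lower than in NC sham, and 8.72% were higher and 18.6% lower than in CDAHFD sham. In the ranking used for Lcn2, all 12 of the largest falls were major urinary protein genes, whose products carry pheromones. Their near-identical copies share reads, so the level of a single copy is uncertain. Mup7 (chr4:60066469-60070475, minus strand) was at 5200, 5159, 5265, 3897 and 4065 FPKM in NC sham and at 0.152, 2.04, 0.404 and 0 in CDAHFD RIC. Mup3, at 8647 to 10023 FPKM in chow liver, was at 239 in CDAHFD RIC sample 1 and at 79.6, 75.6 and 77.4 in the others. Its difference from CDAHFD sham was -0.29 with all samples (adjusted p = 0.403 by limma) and -0.69 without that sample (adjusted p = 0.00177).

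Slco1a1, a hepatocyte transporter of bile acids and steroids (chr6:141907282-141946962, minus strand), was the gene of the 20 that rose over CDAHFD sham. It had 93 ± 12.3 FPKM (SD, n = 5) in NC sham and 0.781, 1.34, 0.801 and 1.06 in CDAHFD RIC, a log2 difference of -5.56 (adjusted p = 2.12e-15 by limma). The CDAHFD sham samples were at 0.166 to 0.339 FPKM, below all 4 conditioned samples, with a difference of 0.68 (adjusted p = 0.00661). The rise left the transporter 93.2-fold below chow by the ratio of means. Female-biased genes were high in the same samples: 9 of 10 tested of 16 rose over chow (median 1.75), where 57% of all genes did. Members near 0 in chow could be tested only where the diet groups were high, so the count describes the tested genes alone. Cyp2a4, a steroid hydroxylase, was at 99, 96.7, 145 and 123 FPKM in CDAHFD RIC and at 0 to 2.79 in NC sham, and the P450 gene Cyp2b9 at 40.7, 70.2, 127 and 82.7 against at most 0.0779. Both belong to families of close copies and their single levels are uncertain. Acot3, an acyl-CoA thioesterase of peroxisomes on the same list, also exceeded CDAHFD sham, with 6.84, 7.97, 25.4 and 9.16 FPKM against 1.48 to 5.1 there and 0.619 to 3.85 in NC sham.

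Scar matrix genes stayed above chow, while several genes of contractile, activated stellate cells were lower than in CDAHFD sham. Of 21 tested of 30 collagen and matrix genes, 20 were higher and 1 lower than in NC sham (median 1.58), and 8 were lower than in CDAHFD sham (median -0.38). Of all genes tested, 57% were higher than in NC sham and 18.6% lower than in CDAHFD sham. Stellate cell and myofibroblast markers were higher than chow in 16 of 17 tested of 20 (median 1.12). The summed level of all 20 was 50.2 to 75.9 FPKM in NC sham, 188 to 286 in CDAHFD sham and 147 to 217 in CDAHFD RIC. Acta2, the smooth muscle actin of myofibroblasts (chr19:34241090-34255590, minus strand), was at 0.0909, 0.392, 0, 0.115 and 0.475 FPKM in NC sham. It was at 1.38, 1.25, 1.27 and 2.77 in CDAHFD RIC and at 6.78, 4.17, 14.8, 6.65 and 9.76 in CDAHFD sham. The 3 groups did not overlap: the log2 difference was 1.12 from chow (SE 0.234, adjusted p = 0.000385) and -1.75 from CDAHFD sham (adjusted p = 7.66e-05), both by limma. Thrombospondin 1 (Thbs1), an activator of TGF-beta, showed the same order, with 0.0785 ± 0.0575 FPKM (SD, n = 5), 1.18 ± 0.507 (SD, n = 4) and 5.01 ± 1.42 (SD, n = 5).

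Of 18 tested TGF-beta and YAP pathway genes, 15 were higher and 1 lower than in chow liver, against 57% and 8.06% of all genes, and after median-ratio scaling 8 were higher and 2 lower. Against CDAHFD sham 10 were lower, beside 18.6% of all genes, and 9 after median-ratio scaling, beside 977 of 10577. Pdgfa, a growth factor for stellate cells, was at 2.99, 3.19, 3.24 and 2.69 FPKM in CDAHFD RIC, between NC sham (0.668 to 1.11) and CDAHFD sham (5.65 to 7.3) without overlap. Cyr61, a YAP target in the matrix, was likewise between, with 4.41 ± 1.03 FPKM (SD, n = 4) against 1.31 ± 0.124 (SD, n = 5) and 13.7 ± 2.7 (SD, n = 5). Timp1, an inhibitor of matrix proteases, was listed at 0 in all 5 NC sham samples and at 4.11, 2.77, 1.15 and 5.14 FPKM in CDAHFD RIC. The CDAHFD sham samples spanned 3.89 to 10.9 FPKM and overlapped with these, and the difference of -1.03 (adjusted p = 0.00515 by limma) was lost in a fit on those 2 groups alone. The fibrillar collagen gene Col1a1 varied most, at 2.79, 3.35, 1.21 and 8.4 FPKM in CDAHFD RIC and 3.47 to 15.7 in CDAHFD sham, against at most 0.158 in NC sham.

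Other matrix genes showed no fall that the test could find. Lum, a proteoglycan that binds collagen fibrils, was at 20.3 ± 5.61 FPKM (SD, n = 4) in CDAHFD RIC and 22.9 ± 7.49 (SD, n = 5) in CDAHFD sham, and at 2.45 ± 0.745 (SD, n = 5) in chow liver. The basement membrane collagen Col4a1 had 12.7, 10.1, 7.44 and 15.4 FPKM in CDAHFD RIC, 9.36 to 14.6 in CDAHFD sham and 1.07 to 1.98 in NC sham. The cytokine Tgfb1 itself was at 2.18 ± 0.482 (SD, n = 4) and 2.56 ± 0.392 (SD, n = 5), with a 95% interval of the log2 difference from -0.38 to 0.04.

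**Figure D3:**
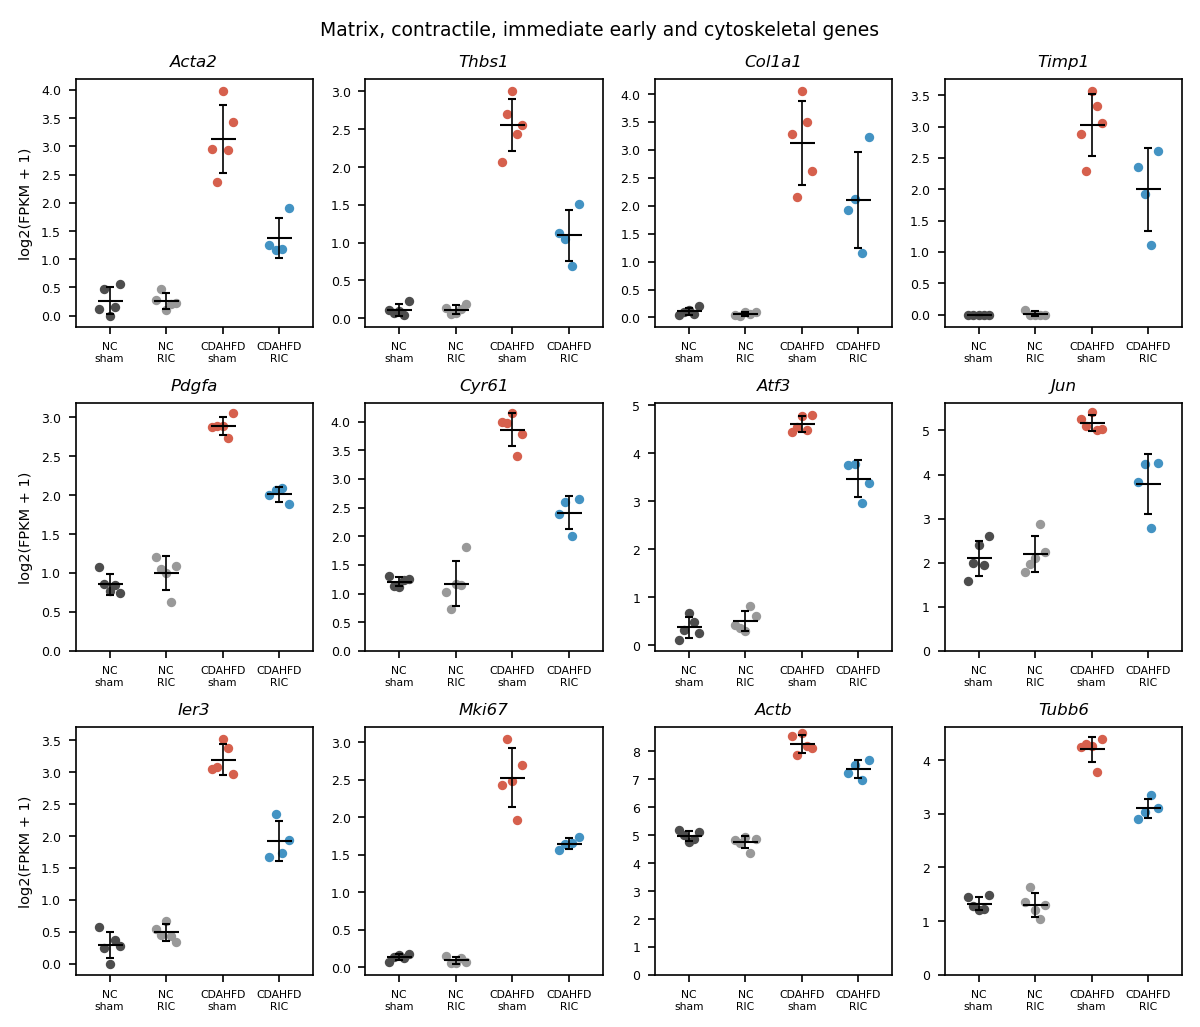
Level, as log2(FPKM + 1), of 12 matrix, early-response, cell-cycle and cytoskeletal genes in every sample of the 4 groups (points), with mean (bar) and SD (whiskers); each panel has its own y axis. For Acta2, Thbs1 and Pdgfa the 4 CDAHFD RIC samples sit between NC sham and CDAHFD sham without overlap.

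Cytoskeletal, early-response and proliferation genes lay between the chow and the diet sham livers. Of 18 actin and tubulin genes, 16 were higher than chow (median 1.67) and 16 lower than CDAHFD sham (median -0.73), against 57% and 18.6% of all genes tested. Cytoplasmic actin (Actb) was at 151, 184, 124 and 208 FPKM in CDAHFD RIC, between 26.2 to 35.7 in NC sham and 233 to 399 in CDAHFD sham. The tubulin gene Tubb6 was at 6.51, 7.2, 9.17 and 7.57 FPKM, between 1.3 to 1.79 and 12.7 to 19.9. For both genes every conditioned sample stood apart from both other groups.

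Immediate early genes, transcribed within minutes of a stimulus, were higher than chow in 15 of 17 tested of 24 (median 1.15) and lower than CDAHFD sham in 12 of 17 (median -0.70). Of all genes tested, 57% were higher than chow and 18.6% lower than CDAHFD sham. Atf3, a stress-induced transcription factor, was at 12.5, 12.7, 6.79 and 9.37 FPKM in CDAHFD RIC, 0.3 ± 0.202 (SD, n = 5) in NC sham and 23.6 ± 2.87 (SD, n = 5) in CDAHFD sham. Jun, an AP-1 subunit, had 13.3, 17.8, 5.95 and 18.2 FPKM in CDAHFD RIC, of which sample 3 was closest to the chow range of 1.99 to 5.04. Its difference was 1.68 from chow (adjusted p = 2.21e-05 by limma) and -1.38 from CDAHFD sham (adjusted p = 0.00142). The proliferation antigen Mki67 was at 1.95, 2.12, 2.14 and 2.32 FPKM, with chow at no more than 0.133 and CDAHFD sham at 2.9 to 7.25. Of 18 tested of 30 cell-cycle genes, 15 were higher than chow (median 1.30) and 9 lower than CDAHFD sham (median -0.39), against 57% and 18.6% of all genes.

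Antioxidant and epithelial injury genes stayed above chow. Of 26 tested genes of the NRF2 and glutathione list, 23 were higher and 2 lower than in chow (median 1.12), against 57% and 8.06% of all genes. Against CDAHFD sham 6 of the 26 were lower, a share near the 18.6% of all genes, and 2 after common-sum scaling. Nfe2l2, which encodes the NRF2 factor, was at 24.8 ± 2.51 FPKM (SD, n = 4) in CDAHFD RIC, between 10.6 ± 1.24 (SD, n = 5) in NC sham and 41.1 ± 2.03 (SD, n = 5) in CDAHFD sham. Gsta1, a glutathione transferase whose reads can be shared with a close copy, was at 54.9, 42.6, 42 and 38.9 FPKM, against 1.2 ± 0.417 (SD, n = 5) and 93.4 ± 28 (SD, n = 5). It was also higher in NC RIC than in NC sham, at 3.66 ± 1.13 FPKM (SD, n = 5, adjusted p = 0.0183 by limma). The heme-degrading enzyme Hmox1 had 56.4 ± 17.2 FPKM (SD, n = 4) and did not separate from CDAHFD sham (75.4 ± 11.8, SD, n = 5; 95% interval of the difference -0.88 to -0.01, adjusted p = 0.114). Cholangiocyte and progenitor markers, which rise when bile duct cells multiply, were higher than chow in 10 of 12 tested of 18 (median 1.77), against 57% of all genes. Their summed level was 114 to 151 FPKM in NC sham, 733 to 1181 in CDAHFD sham and 504 to 766 in CDAHFD RIC. Krt8, a keratin of both bile duct cells and stressed hepatocytes, fell from 312 ± 38.1 (SD, n = 5) in CDAHFD sham to 262, 178, 167 and 163 FPKM, and chow was at 40.7 ± 5.54 (SD, n = 5). Krt23, another epithelial keratin, went further from chow: 6.87, 11.9, 6.24 and 6.25 FPKM against 4.11 ± 1.48 (SD, n = 5) in CDAHFD sham and 1.14 ± 0.363 (SD, n = 5) in NC sham (adjusted p = 0.00729 for the diet groups). The hepatocyte identity list, by comparison, had 2 higher and 8 lower of 17 tested, with a median of -0.26 from chow, which was -0.80 after median-ratio scaling and 0.00 after quantile normalization. Of all genes tested, 57% were higher and 8.06% lower than in chow.

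**Figure D4:**
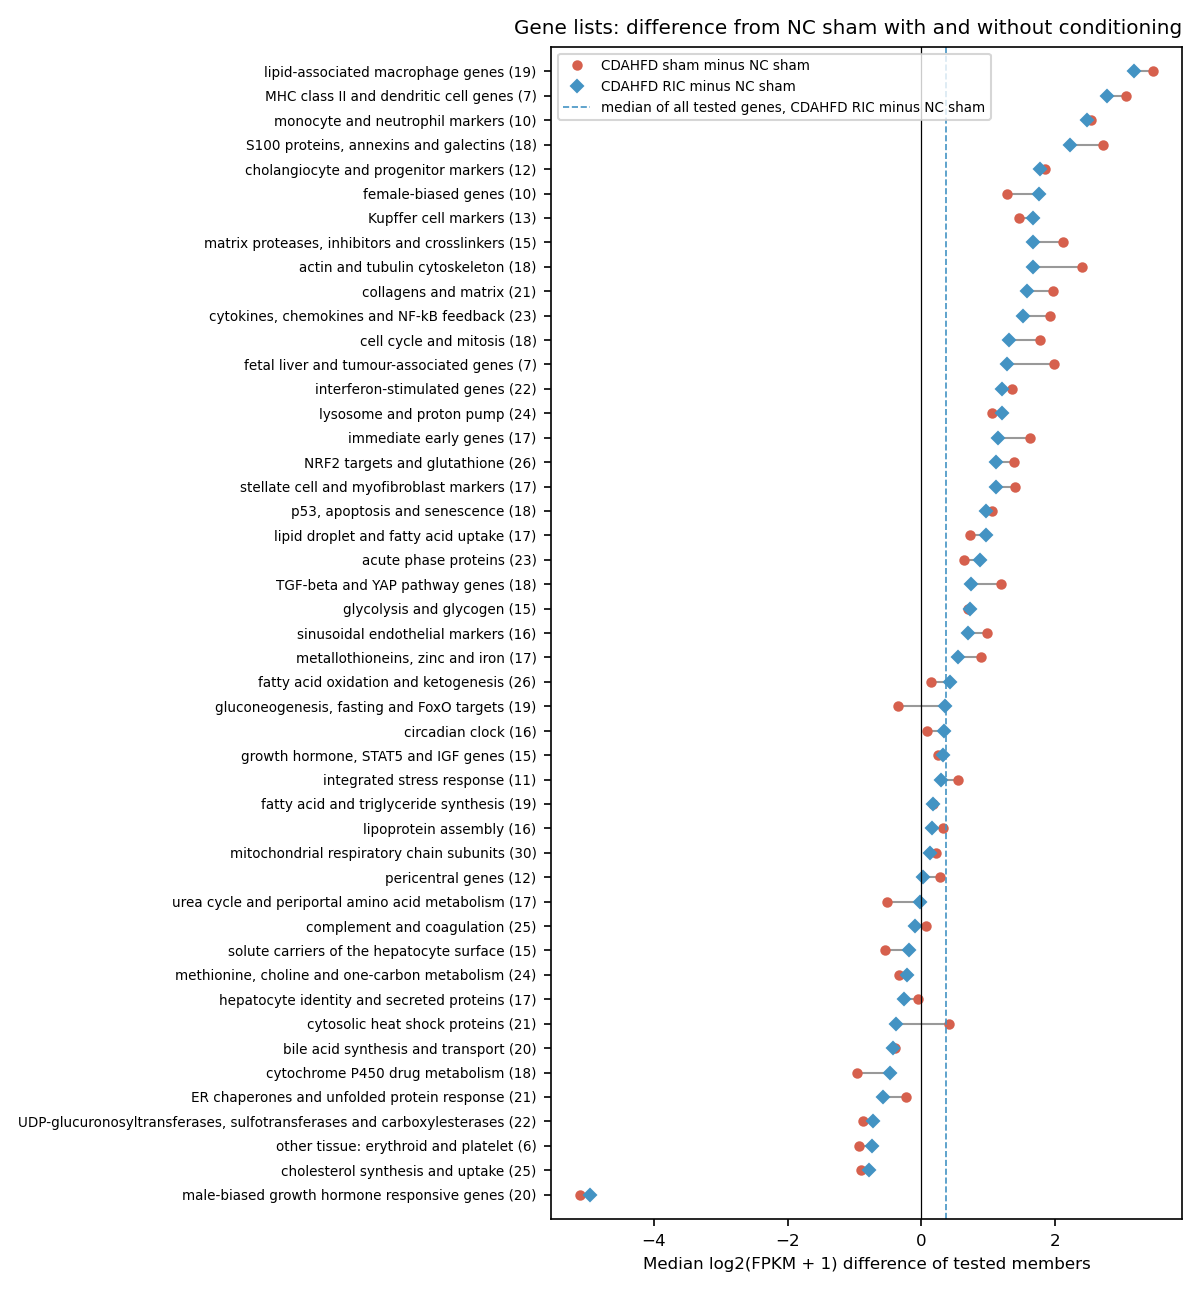
Median log2 difference from NC sham of each gene list, in CDAHFD sham (red circles) and CDAHFD RIC (blue diamonds), with the number of genes tested in brackets. The dashed line is the median of all genes tested in CDAHFD RIC, 0.36. The male-biased list lies lowest at -4.95 in CDAHFD RIC, and the heat shock list lies at -0.38 in CDAHFD RIC, below the dashed line. In CDAHFD sham the heat shock list lies at 0.41, near the 0.45 of all genes there, for which no line is drawn.

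Several genes of glucose handling and fasting differed from CDAHFD sham and overlapped with chow. G6pc, the enzyme that releases glucose from the hepatocyte (chr11:101367561-101377903, plus strand), was at 153, 161, 140, 123 and 218 FPKM in NC sham. It was at 63.8, 113, 88.4 and 163 in CDAHFD RIC and at 34.2, 5.87, 37, 46.9 and 14.8 in CDAHFD sham. Conditioned samples overlapped with chow and lay above every diet sham sample. The log2 difference was -0.62 from chow (95% interval -1.57 to 0.32, adjusted p = 0.23) and 2.13 from CDAHFD sham (adjusted p = 0.00273), both by limma. The difference from chow passed after median-ratio scaling (-1.17) and in a fit on those 2 groups alone. Igfbp1, a secreted binding protein for insulin-like growth factors that insulin represses (chr11:7197782-7202546, plus strand), was at 79.4, 124, 153, 85.9 and 169 FPKM in NC sham. It had 130, 221, 120 and 313 FPKM in CDAHFD RIC and 9.92 to 69.4 in CDAHFD sham. Its difference was 0.63 from chow (95% interval -0.44 to 1.70, adjusted p = 0.288) and 2.59 from CDAHFD sham (adjusted p = 0.00167). The intervals of both genes from chow are wide, and neither shows equality.

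The promoters of both genes held the letters CAAAACA, a core recognized by FoxO factors, which drive the fasting program when insulin is low. The letters were sought on both strands in windows from 250 bases before to 50 after the RefSeq start (GRCm38.p6). They are shown because these are the fasting genes with the largest rises over CDAHFD sham described here. Capitals mark the match, which begins 108 bases before the start in Igfbp1 (chr11:7197537-7197836, plus strand) and 174 before in G6pc (chr11:101367466-101367765, plus strand), there as its reverse complement.
Igfbp1: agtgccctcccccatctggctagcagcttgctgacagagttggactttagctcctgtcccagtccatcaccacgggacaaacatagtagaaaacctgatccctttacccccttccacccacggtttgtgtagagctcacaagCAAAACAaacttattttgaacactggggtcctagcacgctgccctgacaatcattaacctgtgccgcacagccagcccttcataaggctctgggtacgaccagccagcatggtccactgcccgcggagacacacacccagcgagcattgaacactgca
G6pc: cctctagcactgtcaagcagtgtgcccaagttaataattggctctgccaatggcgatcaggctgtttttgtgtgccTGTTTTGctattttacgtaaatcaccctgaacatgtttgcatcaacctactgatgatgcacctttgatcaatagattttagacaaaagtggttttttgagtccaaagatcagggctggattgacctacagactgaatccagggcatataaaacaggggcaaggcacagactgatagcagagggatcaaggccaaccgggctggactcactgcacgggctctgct
The same letters stand in 6.28% of the 32851 windows and, counted by gene, in a window of 7.2% of 27025 genes. They stand in those of 4 of 17 tested genes of the fasting and FoxO list that have a window.

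Of the 19 genes of that list, 8 were higher in CDAHFD RIC than in CDAHFD sham and none lower (median 0.46). Of all genes tested, 8.72% were higher and 18.6% lower there. Against chow 9 of the 19 were higher and 1 lower, with a median of 0.35, and after median-ratio scaling 1 was higher and 8 lower, with a median of -0.06. Of all genes tested, 57% were higher and 8.06% lower than chow, with a median of 0.36. After median-ratio scaling 2474 of all 10577 genes were higher and 3082 lower, with a median of -0.06. Pck1, the first committed enzyme of glucose synthesis, was at 500, 495, 307 and 549 FPKM in CDAHFD RIC, 527 to 653 in NC sham and 149 to 493 in CDAHFD sham, with no call against either by limma (adjusted p = 0.212 and 0.165). Its difference from chow passed as a fall after median-ratio scaling (-0.90). Angptl8, a feeding-induced inhibitor of lipoprotein lipase (chr9:21835510-21837347, plus strand), was at 7.56, 4.43, 6.64, 11.8 and 5.31 FPKM in NC sham. It was at 8.39, 13.9, 7.73 and 7.82 in CDAHFD RIC and at 39.3, 91.2, 56.9, 51.4 and 118 in CDAHFD sham. The difference from CDAHFD sham was -2.72 (adjusted p = 3.19e-05) and that from chow 0.39 (95% interval -0.30 to 1.08). Ppara, the fatty acid sensor that drives oxidation, was at 26.5, 21.6, 22.3 and 12.5 FPKM against 12.3 to 20.3 in chow liver and 5.75 to 11.7 in diet sham liver (difference from the latter 1.38, adjusted p = 0.000265). Feeding state at harvest is not stated, and its part in these differences was not tested.

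A further group of genes was chosen because the 95% interval of the difference from chow lay within 0.5 on the log2 scale on either side of 0, while both diet comparisons passed; their closeness to chow is thus a description. Ppm1k, the phosphatase that switches on branched-chain amino acid breakdown, was at 18.3 ± 2.46 FPKM (SD, n = 5) in NC sham, 6.46 ± 1.2 (SD, n = 5) in CDAHFD sham and 19.9 ± 3.21 (SD, n = 4) in CDAHFD RIC. The histone variant gene H2afx, which marks DNA breaks when phosphorylated, moved from 8.22 ± 1.17 (SD, n = 5) in CDAHFD sham to 2.73 ± 0.768 (SD, n = 4), with chow at 2.68 ± 0.359 (SD, n = 5). Crebrf, which controls the turnover of a CREB family factor, was at 7.03 ± 0.618, 3.01 ± 0.361 and 7.36 ± 0.789 FPKM in NC sham, CDAHFD sham and CDAHFD RIC (SD, n = 5, 5 and 4). Klhl24 (a ubiquitin ligase adaptor) and Bag4 (a co-chaperone) had the same pattern, at 12.4 ± 2.61 and 6.83 ± 1.44 FPKM (SD, n = 4) in CDAHFD RIC and 11.2 ± 0.968 and 7.02 ± 0.541 (SD, n = 5) in chow liver. After median-ratio scaling, which lowers CDAHFD RIC relative to NC sham as a whole, these genes were below chow by the test, with differences of -0.41 for Ppm1k, -0.39 for H2afx, -0.42 for Crebrf, -0.38 for Klhl24 and -0.53 for Bag4, while Klhl24 was above chow after common-sum scaling (0.28).

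**Figure D5:**
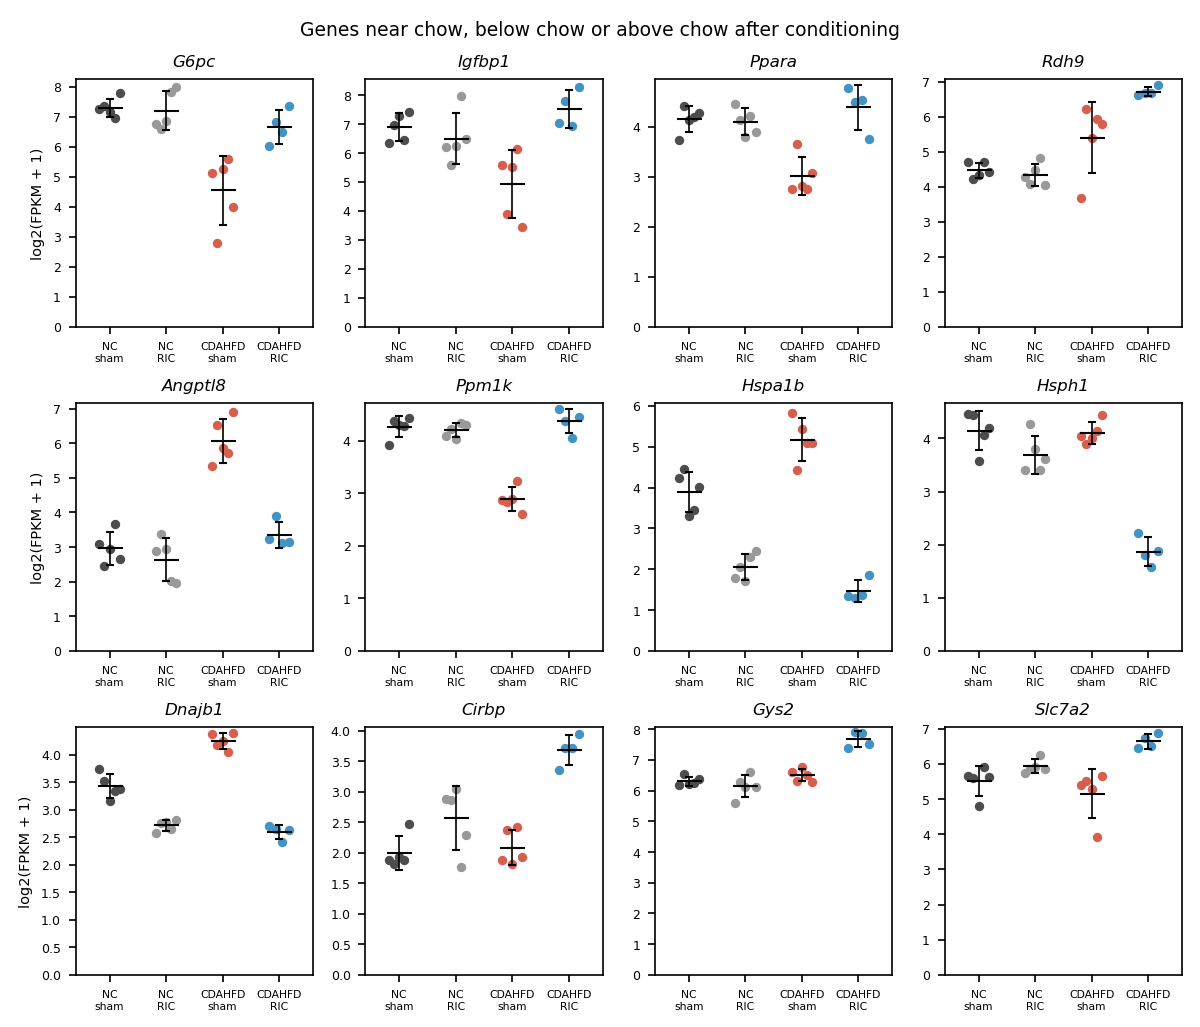
Level, as log2(FPKM + 1), of 12 genes in every sample of the 4 groups (points), with mean (bar) and SD (whiskers); each panel has its own y axis. G6pc, Igfbp1, Ppara, Angptl8 and Ppm1k overlap between CDAHFD RIC and NC sham, Hspa1b, Hsph1 and Dnajb1 lie below chow, and Rdh9, Cirbp, Gys2 and Slc7a2 lie above it.

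Several cytosolic heat shock genes were below the chow level. These chaperones, switched on by heat shock factor when proteins unfold, numbered 21 tested of 23. In CDAHFD RIC 17 of the 21 were lower than in CDAHFD sham and none higher (median -0.89), beside 18.6% and 8.72% of all genes. Against chow 11 were lower and 1 higher, with a median of -0.38 beside 0.36 for all genes, and 8.06% of all genes were lower. The remaining 9 did not pass. The median stayed below 0 under each scaling: 9 were lower and 5 higher after common-sum scaling (median -0.22), 18 and 1 after median-ratio scaling (-0.89), and 12 and none after quantile normalization (-0.72). Of all 10577 genes, 608 were lower and 7254 higher after common-sum scaling. The all-gene counts were 3082 and 2474 after median-ratio scaling, and 2877 and 2627 after quantile normalization. In CDAHFD sham 14 of the 21 were higher than chow and none lower (median 0.41), near the 63.9% and the median of 0.45 of all genes, and after median-ratio scaling 4 were higher and 8 lower. Of all 10577 genes, 2849 were higher and 3637 lower after that scaling.

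Hspa1b, an inducible HSP70 (chr17:34956436-34959238, minus strand), had 17.9, 20.7, 8.82, 9.96 and 15.1 FPKM in NC sham and 1.54, 1.44, 1.58 and 2.61 in CDAHFD RIC. All conditioned samples lay below all chow samples, 8.09-fold by the ratio of means, with a log2 difference of -2.42 (SE 0.258, adjusted p = 1.65e-07 by limma). The CDAHFD sham samples were at 55.7, 20.5, 42.4, 32.9 and 33.3 FPKM, and the difference from them was -3.71 (adjusted p = 6.86e-08). Chow livers with conditioning were low too: NC RIC had 2.47, 3.15, 2.26, 3.88 and 4.48 FPKM, a difference of -1.83 from NC sham (adjusted p = 0.00462). Its near-identical neighbour Hspa1a (chr17:34969190-34972156, minus strand), with which reads can be shared, was at 0.551 ± 0.158 FPKM (SD, n = 4) in CDAHFD RIC and 2.45 ± 0.732 (SD, n = 5) in NC sham. Hsph1, an HSP110 nucleotide exchange factor (chr5:149614287-149636376, minus strand), was at 21.1, 20.7, 10.9, 15.7 and 17.4 FPKM in NC sham, 16.4 ± 2.65 (SD, n = 5) in CDAHFD sham and 3.66, 2.49, 1.99 and 2.68 in CDAHFD RIC. Its difference was -2.28 from chow and -2.24 from CDAHFD sham (adjusted p = 7.6e-09 and 1.27e-06), and that of NC RIC from NC sham was -0.45 (adjusted p = 0.215). The co-chaperone Dnajb1 was at 5.54, 5.27, 4.33 and 5.2 FPKM in CDAHFD RIC, below 7.91 to 12.3 in NC sham and 15.6 to 20 in CDAHFD sham, and NC RIC was at 4.94 to 6.01.

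The promoter windows of Hspa1b and Hsph1 are shown because these genes were the furthest below chow of those named from the list. Both hold GAANNTTC, an inverted pair of heat shock element units that heat shock factor binds, marked in capitals and sought on both strands. It begins 104 bases before the start in Hspa1b (chr17:34959189-34959488, minus strand) and 41 bases after it in Hsph1 (chr5:149636287-149636586, minus strand), in RefSeq windows of GRCm38.p6 printed 5′ to 3′ along the gene.
Hspa1b: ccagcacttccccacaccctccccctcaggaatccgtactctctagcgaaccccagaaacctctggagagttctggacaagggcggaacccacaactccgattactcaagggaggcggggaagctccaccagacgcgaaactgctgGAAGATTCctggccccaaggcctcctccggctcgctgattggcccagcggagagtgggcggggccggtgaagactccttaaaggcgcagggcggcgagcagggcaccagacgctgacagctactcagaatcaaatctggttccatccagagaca
Hsph1: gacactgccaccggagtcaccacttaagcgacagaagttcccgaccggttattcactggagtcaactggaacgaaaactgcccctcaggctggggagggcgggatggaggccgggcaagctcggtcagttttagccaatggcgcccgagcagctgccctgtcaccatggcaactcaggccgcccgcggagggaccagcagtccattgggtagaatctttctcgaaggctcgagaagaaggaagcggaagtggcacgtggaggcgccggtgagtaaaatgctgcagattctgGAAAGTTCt
The motif stands in 7.86% of all 32851 windows and, counted by gene, in a window of 9.04% of 27025 genes. It stands in those of 11 of the 17 tested heat shock genes that have one, and Dnajb1 has no match.

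The constitutive chaperone Hspa8, named after its values were seen, was at 413, 507, 367, 366 and 418 FPKM in NC sham and 174, 225, 249 and 208 in CDAHFD RIC. The groups did not overlap (difference -0.95, adjusted p = 1.66e-05 by limma), CDAHFD sham was at 410 ± 62.5 FPKM (SD, n = 5), and NC RIC was at 243 ± 50.7 (SD, n = 5). Chaperones of the endoplasmic reticulum were also below chow, in 13 of 21 with 1 higher (median -0.57), where 8.06% of all genes were lower. After common-sum scaling 8 were lower, beside 608 of all 10577 genes, and after median-ratio scaling 20, beside 3082. Against CDAHFD sham 5 were lower and 2 higher, near the shares of all genes (18.6% and 8.72%). Creld2, an ER-stress-induced secreted protein, was at 10.7, 6.59, 5.02 and 8.07 FPKM against 16.1 to 43.6 in NC sham. Hsp90b1, the HSP90 of that compartment, was at 143 ± 24 FPKM (SD, n = 4) in CDAHFD RIC, 162 ± 13.3 (SD, n = 5) in CDAHFD sham and 241 ± 39 (SD, n = 5) in NC sham. Herpud1, which takes part in ER-associated degradation, was at 51.7 ± 11.5 (SD, n = 4) against 93.8 ± 13 (SD, n = 5) in chow liver.

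Some genes stood above chow in conditioned livers and not, or less, in diet sham livers. Cirbp, an RNA-binding protein induced by cold (chr10:80165985-80172786, plus strand), was at 2.69, 2.52, 2.8, 2.67 and 4.57 FPKM in NC sham and 9.26, 12.2, 12.1 and 14.3 in CDAHFD RIC. The CDAHFD sham mean was 3.31 ± 0.88 (SD, n = 5), and conditioned samples were above all samples of both groups. The log2 difference was 1.69 from chow (SE 0.22, adjusted p = 2.24e-06) and 1.60 from CDAHFD sham (adjusted p = 9.82e-05), both by limma. In NC RIC it stood at 6.32, 6.26, 7.28, 2.42 and 3.89 FPKM, 3 of 5 above the chow range, with no call (adjusted p = 0.173). Gys2, the liver glycogen synthase (chr6:142422613-142473109, minus strand), was at 165, 240, 234 and 183 FPKM in CDAHFD RIC, against 78.4 ± 8.49 (SD, n = 5) in NC sham and 89.9 ± 12.3 (SD, n = 5) in CDAHFD sham. Its differences were 1.37 and 1.18 (adjusted p = 6.2e-07 and 9.22e-05). Slc7a2, a transporter of arginine, had 85.7, 106, 89.5 and 117 FPKM against 26.7 to 58.8 in NC sham, a rise lost after median-ratio scaling. Rdh9, a retinol dehydrogenase, was at 97.1, 102, 102 and 119 FPKM against 17.9 to 25.1 in NC sham and 11.8 to 73.2 in CDAHFD sham.

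Lipid genes differed from chow in both directions. Of 17 tested genes of lipid droplets and fatty acid uptake, 12 were higher and none lower (median 0.97), beside 57% of all genes higher, and after median-ratio scaling 8 were higher and 1 lower. Against CDAHFD sham 3 of them were higher, beside 8.72% of all genes. Of 19 genes of fatty acid and triglyceride synthesis, 6 were higher and 7 lower than in chow (median 0.17), beside 57% and 8.06% of all genes. The fatty acid receptor Cd36 was at 11.7, 16.6, 7.64, 15.8 and 18 FPKM in NC sham and 126, 214, 178 and 147 in CDAHFD RIC, a log2 difference of 3.51 (adjusted p = 6.72e-10 by limma). Plin2, the coat protein of lipid droplets, rose from 189 ± 78.8 (SD, n = 5) to 353 ± 73 FPKM (SD, n = 4), and the desaturase Scd1 from 203 ± 104 (SD, n = 5) to 467 ± 161 (SD, n = 4). Both calls were lost after median-ratio scaling. Srebf1, the master regulator of lipid synthesis, was at 11.2, 4.66, 5.35 and 4.97 FPKM in CDAHFD RIC, above 2.75 to 4.26 in CDAHFD sham and 1.13 to 2.27 in NC sham. Its difference from chow was 1.51 (adjusted p = 7.42e-07), and that from CDAHFD sham 0.67 (adjusted p = 0.011), the latter lost in a fit on those 2 groups alone. Acacb, whose product restrains fatty acid entry into mitochondria, was at 1.92, 2.85, 3.14 and 2.59 FPKM in CDAHFD RIC. It was at 0.889 to 1.41 in CDAHFD sham, below all 4 conditioned samples, and at 3.05 to 4.85 in NC sham, a range that holds CDAHFD RIC sample 3. By the test, CDAHFD RIC differed from both groups.

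Fatty acid oxidation genes were higher than chow in 12 of 26, where 57% of all genes were, and lower in 1 (median 0.43 beside 0.36 for all genes), and after median-ratio scaling 2 were higher and 6 lower (median -0.10). Against CDAHFD sham 6 were higher and none lower, beside 8.72% and 18.6% of all genes. Cpt1a, the gatekeeper of mitochondrial import, was at 83.6, 106, 112 and 104 FPKM in CDAHFD RIC, above 51 to 65.7 in NC sham (difference 0.73, adjusted p = 5.24e-06 by limma) and 65 to 77.8 in CDAHFD sham. The kinase Pdk4, which spares glucose in fasting, was at 54.6, 54.2, 26 and 83.6 FPKM, and chow samples spread from 7.81 to 50.6. Both differences from chow were lost after median-ratio scaling. NC RIC was below NC sham for Cpt1a (42 ± 4.75 FPKM, SD, n = 5, adjusted p = 0.0182).

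Sterol synthesis stayed low. Of 25 genes of cholesterol synthesis and uptake, 17 were lower and 2 higher than in chow (median -0.79), and 1 was higher and 1 lower than in CDAHFD sham (median 0.02). Of all genes tested, 8.06% were lower and 57% higher than in chow, and 8.72% higher and 18.6% lower than in CDAHFD sham. Tm7sf2, a sterol reductase, was at 1.46, 0.55, 0.715 and 0.91 FPKM against 9.59 to 17.7 in NC sham and 0.849 to 1.6 in CDAHFD sham. Cyp51, the lanosterol demethylase, was at 2.68 ± 0.889 FPKM (SD, n = 4) against 28.2 ± 8.87 (SD, n = 5) in chow liver (difference -2.97, adjusted p = 2.03e-09 by limma). Bile acid and sterol transport genes went both ways: of 20 genes of that list, 5 were higher and 9 lower than in chow (median -0.43), 2 and 14 after median-ratio scaling, and 7 were higher and none lower than in CDAHFD sham. The shares of all genes are those given for the sterol genes, and 2474 and 3082 of 10577 after median-ratio scaling. Abcg5, a partner in the canalicular sterol exporter, was at 67.4, 52.2, 51.2 and 48.7 FPKM in CDAHFD RIC, above 22.4 to 27 in NC sham and 21.3 to 37 in CDAHFD sham. Abcc2, the canalicular exporter of conjugates, was at 77.4 ± 12.5 FPKM (SD, n = 4) against 51.5 ± 3.57 (SD, n = 5) and 50.6 ± 4.71 (SD, n = 5), though its difference from chow was 0.03 after median-ratio scaling. Cyp7a1, the rate-limiting enzyme of bile acid synthesis, spread from 17.8 to 47.5 FPKM in CDAHFD RIC and from 14.2 to 48.2 in NC sham (95% interval of the difference -0.85 to 0.64).

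A few genes of drug, methyl group and amino acid metabolism were above CDAHFD sham. Of 18 tested P450 genes, 11 were lower and 4 higher than in chow (median -0.47), and 6 were higher and none lower than in CDAHFD sham. Of all genes tested, 8.06% were lower and 57% higher than in chow, and 8.72% higher and 18.6% lower than in CDAHFD sham. Cyp2c54, an epoxygenase, was at 20.5, 6.17, 7.56 and 6.85 FPKM against 233 to 319 in NC sham. Cyp3a13 was at 96, 69.8, 94.7 and 68 FPKM, between 106 to 134 in NC sham and 34.4 to 46.5 in CDAHFD sham, and differed from both (-0.54, adjusted p = 0.000527, and 0.98, adjusted p = 3.09e-05, by limma). Of 24 tested genes of methionine, choline and one-carbon metabolism, 10 were lower and 3 higher than in chow (median -0.21). The counts were 6 and 5 after common-sum scaling and 17 and 1 after median-ratio scaling. Of all 10577 genes, 608 were lower and 7254 higher after common-sum scaling, and 3082 and 2474 after median-ratio scaling. Gnmt, which disposes of surplus methyl groups, was at 281, 361, 502 and 311 FPKM, between 571 to 743 in NC sham and 120 to 242 in CDAHFD sham. Its difference from chow of -0.82 (adjusted p = 0.000912) was lost after quantile normalization. Bhmt, which remakes methionine from the choline product betaine, was at 439, 723, 888 and 600 FPKM and overlapped with NC sham, whose sample 4 was at 668 and whose others were at 1220 to 2080. The urea cycle enzyme Otc was at 66.5 ± 15 FPKM (SD, n = 4) against 124 ± 6.07 (SD, n = 5) in chow liver and 60.5 ± 6.65 (SD, n = 5) in diet sham liver. Transthyretin (Ttr) was lower than in both groups, at 2249, 1302, 1746 and 2322 FPKM against 2420 to 2680 in NC sham and 2520 to 2977 in CDAHFD sham, but its call against chow was lost after common-sum scaling, and both calls after quantile normalization.

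Some clock genes differed from chow; the time of harvest is not recorded and its part was not tested. Of 16 tested, 9 were higher and 3 lower than in NC sham (median 0.33), near the 57% and the median of 0.36 of all genes, and after median-ratio scaling 2 were higher and 5 lower. Dbp, a clock output factor with a steep daily rhythm, was at 19.2, 13.1, 15.5 and 12.1 FPKM in CDAHFD RIC, 13.2 to 28.9 in CDAHFD sham and 0.684 to 3.61 in NC sham. Per3 was at 3.44 ± 0.477 FPKM (SD, n = 4) against 0.906 ± 0.259 (SD, n = 5) in chow liver. Clock, the core activator, was at 2.3, 3.02, 2.89 and 1.62 FPKM, below 4.31 to 5.77 in NC sham (difference -0.84, adjusted p = 5.59e-06 by limma).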

How the data were processed

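Bulk liver RNA-seq of 19 mouse samples was grouped by the sample titles. The authors deposited 1 table of FPKM; the sources used here do not state its program or annotation, the strand setting, batches or harvest times. The submitters' processing notes name FastQC 0.11.9, Trimmomatic 0.38, HISAT2 2.2.1, HTSeq 0.13.5, R 3.4.1, DESeq2 1.18.1 and mm10, without roles. Of 55335 entries, 3225 had no gene name and were left out. Values were taken as log2(FPKM + 1), and 10577 genes whose FPKM averaged 1 or more in the 19 samples were tested. FPKM are not counts, so limma 3.58.1 (R 4.3.3; eBayes with trend) was run two-sided on all samples, each group having its own mean (residual degrees of freedom: 15), with Benjamini-Hochberg adjustment over the genes tested and a threshold of 0.05. The fit was tested on simulated data. Depth was estimated from the lowest values of single-exon genes; 1 read in a 2 kb gene is worth about 0.0254 FPKM. Positions came from GENCODE M21 by symbol (mm10).

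Members and gene lists (51) were chosen with earlier results of these data known. The genes named were those of fixed rules: the 12 largest rises and falls with separated groups, up to 3 genes per list by p against chow and 2 against CDAHFD sham, the 10 largest rises and falls against CDAHFD sham that also passed against chow, 8 genes near chow, and a fixed set. Apart from the picks per list and the fixed set, the rules left out symbols of predicted genes, clones and pseudogenes, date-like symbols and symbols listed more than once. Not all of the genes so named are described. Hspa8 lies outside these rules. Alternatives were the pseudocount, the filter, 3 scalings, a fit on the compared groups alone, sample weights, a replicate block and leaving out each sample; leaving out CDAHFD sham samples 2 and 5 together was chosen after the data were seen.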

Additional observations from a re-analysis of the deposited data

Results flagged for a closer look

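Of 162 groups of samples examined (81 named genes in NC sham and in CDAHFD RIC), 17 held a sample whose gap to its nearest neighbour was large for the range of its group; chance alone gives about 1 in 20. All values are FPKM. In NC sham, sample 2 was high for Cyp2a4 (2.79, the others at most 0.17), Cyp2b9 (0.0779, the others listed at 0) and Krt23 (1.78, the others 0.922 to 1.03), and low for Gsta1 (0.481, the others 1.27 to 1.5). Sample 3 was high for Gpnmb (0.0089, the others listed at 0) and for Tm7sf2 (17.7, the others 9.59 to 11.5). Sample 4 was high for Dbp (3.61, the others 0.684 to 1.11), and sample 5 for Cirbp (4.57, the others 2.52 to 2.8).

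In CDAHFD RIC, sample 1 was high for Mup3 (239, the others 75.6 to 79.6), Cyp2c54 (20.5, the others 6.17 to 7.56), Krt8 (262, the others 163 to 178) and Srebf1 (11.2, the others 4.66 to 5.35). Sample 2 was high for Krt23 (11.9, the others 6.24 to 6.87) and Angptl8 (13.9, the others 7.73 to 8.39). Sample 3 was high for Acot3 (25.4, the others 6.84 to 9.16). Sample 4 was high for Acta2 (2.77, the others 1.25 to 1.38) and Hspa1b (2.61, the others 1.44 to 1.58). The calls of these genes against NC sham did not change when the sample concerned was left out.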

How the results depend on the processing

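Of the 81 named genes, all kept their direction and side of the threshold against NC sham with a pseudocount of 0.1, without a filter, with the replicate block, with sample weights and with each of the 9 samples left out in turn; 67 did so after median-ratio scaling and 75 after quantile normalization. Reversals were limited to genes close to chow: Ppm1k (-0.41), H2afx (-0.39), Crebrf (-0.42) and Klhl24 (-0.38) after median-ratio scaling, and H2afx (-0.45) and Crebrf (-0.35) after quantile normalization. The cause was not tested.

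Genes higher in CDAHFD RIC than in NC sham numbered 6032; the count was 9430 without a filter and 2524 at a mean FPKM of at least 5, where more or fewer genes were tested, 2474 after median-ratio scaling and 2627 after quantile normalization. Genes lower numbered 853, and 3082 and 2877 after those scalings. Common-sum scaling gave 7254 higher and 608 lower. Leaving out 1 sample gave 5591 to 5960 higher and 774 to 850 lower. Against CDAHFD sham, 922 were higher: 483 at a mean FPKM of at least 5, 1481 after quantile normalization and 543 in a fit on the 2 groups alone. The 1964 lower became 997 at a mean FPKM of at least 5, 971 after common-sum scaling and 977 after median-ratio scaling. Leaving out 1 sample gave 645 to 1120 higher and 1300 to 2151 lower, the 1300 without CDAHFD RIC sample 3; without CDAHFD sham samples 2 and 5 together, 1290 were higher and 1967 lower. With the replicate number as a block, 6073 were higher and 832 lower than NC sham, and 902 and 1645 against CDAHFD sham. Same-numbered samples showed no strong link. Deviations of same-numbered NC sham and CDAHFD RIC samples correlated at -0.132 to 0.0475 and those of CDAHFD sham and CDAHFD RIC at -0.174 to 0.154. Among NC sham, 0 of 4 CDAHFD RIC samples matched their own number best, and the match among CDAHFD sham was not tested. With 4 pairs in each comparison, a weak link by number could not be detected. Genes near the estimated level of 1 read, such as Gpnmb in chow liver, have no dependable fold.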
